A study of Mus musculus with 28 samples.

Results

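Oxidative phosphorylation was followed here through the mRNAs of its nuclear-encoded subunits, in cells sorted from the mouse lung. The genes were taken by symbol from the first column of each table: names beginning Nduf with a, b, c, s or v and a digit, Cox4 to Cox8 with a letter from a to c, Atp5 or Uqcr, and Sdha to Sdhd, without names holding "-ps", listed in all 28 tables. This gave 79 of the 19375 symbols that all tables share. Sorted by the start of the symbol alone, 37 fall under complex I, 4 under complex II, 8 under complex III, 16 under complex IV and 14 under ATP synthase. Ndufa4 and Ndufa4l2 are thus counted under complex I by name, which does not settle the complex they belong to. The pattern leaves out Cox4i1, Cox4i2, Cyc1 and Ndufab1, which are subunits too. A further 10 matching symbols without "-ps" were listed in only some of the tables, because the tables use different symbol sets. Of these, Atp5f1, Atp5s and Atp5sl appear only in ILC2 and basophil tables.

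The libraries come from wild-type C57BL/6 mice aged 8 weeks. Cells labelled AEC1 and AEC2 (type 1 and type 2 alveolar epithelial cells), ILC2 (group 2 innate lymphoid cells) or basophil were sorted. Mice were untreated, or were given papain (a plant protease used to provoke allergic airway inflammation), or papain with FK506 (tacrolimus, an inhibitor of calcineurin). Per the labels, intraperitoneal FK506 (0.2 mg daily) was given in a pair of 3 day courses set 2 days apart, and intranasal papain (50 µg daily) accompanied the later course. AEC1 and AEC2 have 2 libraries per treatment and ILC2 has 3. Basophil-labelled cells have 3 papain and 3 papain with FK506 libraries but 1 untreated library, which carries the numbers of both of its controls. How many mice gave each library is not stated, so p-values measure the spread between these libraries only.

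The respiratory chain passes electrons from NADH (complex I) and succinate (complex II) through complex III to oxygen at complex IV, and ATP synthase uses the resulting proton gradient. Most subunits are encoded in the nucleus and a small core set in mitochondrial DNA, so each complex except complex II is assembled from the products of both genomes. Type 2 alveolar cells make and recycle surfactant and are known for abundant mitochondria, and type 1 cells are thin and cover most of the gas exchange surface. Several small subunits of complex IV exist as ubiquitous and as heart and skeletal muscle isoforms.

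Values are CPM, reads scaled to a common library total. Reads recovered from the step of the values numbered 847753 to 975287 for a full library in AEC1 and 1206874 to 1336092 in 5 of the 6 AEC2 libraries, so 1 read was worth about 1 CPM. The 9 ILC2 libraries and AEC2 untreated replicate 1 hold rounded CPM of unknown depth. Gapdh was listed at 0 in most libraries, so a 0 means only that a gene is listed at 0. Labels and markers did not always go together. AEC2 markers summed to 128193 to 155061 CPM in AEC2 libraries. The 10 AEC1 markers summed to 784 to 1111 CPM in AEC1 libraries and 1731 to 4192 CPM in AEC2 libraries, but they did not move together. Ager had 1384 to 3505.7 CPM in AEC2 and 37.1 to 114.4 CPM in AEC1. Pdpn went the other way, with 98.8 to 432.9 CPM in AEC1 and 0 in every AEC2 library. AEC1 libraries also held 10056 to 26825 CPM of fibroblast and smooth muscle markers. Basophil markers summed to at most 287.8 CPM in basophil libraries, with Mcpt8 and Fcer1a at 0, beside 1997 to 19703 CPM of macrophage, monocyte and dendritic cell markers. ILC2 replicate 3 carries another file code than replicates 1 and 2, and its libraries held 5012 to 6833 CPM of AEC2 markers against 5 to 656 CPM in the other 6. The names AEC1 and basophil below are therefore those of the labels. In bulk samples, fewer cells of a type and less RNA per cell cannot be told apart.

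The untreated and papain libraries of AEC2 that carry replicate number 2 were nearly identical although their labels differ. Their log2 values correlated at 0.9913 over 7515 genes. A chi-square statistic per gene on their reads had a median of 0.093, where counting noise alone gives 0.455. Of the 68 members at 10 CPM or more in both libraries, 61 lay within 0.9 to 1.1 of each other, and the median ratio was 1.052. The typical gene thus differed by less than sampling noise. The mean of the statistic was 2.513, so some genes differed by more, among them Uqcrb (16.2 and 83.0 CPM) and Cox7c (602.5 and 450.2 CPM). Results that use AEC2 are given with and without this pair.

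To show what lies upstream of members discussed below, promoters from 250 bases before to 50 bases after the annotated start were read from RefSeq (GRCm38.p6). All 79 members matched a RefSeq gene and 66 had a window. Where a gene had more than 1 window, only the first listed was counted. Motif cores were searched on both strands: GCGCATGC for NRF1, CCGGAAG for ETS factors such as GABP, and AAGATGGC for YY1, all regulators linked to mitochondrial genes. The NRF1 core was in 10 member windows (15.2%), against 2.80% of the 27025 genes with a window. For the ETS core the count was 15 (22.7%) against 9.12%, and for the YY1 core 8 (12.1%) against 2.88%. Atp5j has an ETS and a YY1 core only outside its first listed window and is not in these counts. At least 1 of the NRF1 and ETS cores stood in 20 windows and both in 5. A match is a description of letters, not of a bound site. Cox6a1, Atp5e and Atp5h are shown because they are the members that differed between AEC2 and AEC1 and whose window holds a core. Capitals mark the cores, and the ETS core lies on the opposite strand in each. The windows are chr5:115348909-115349208, chr2:174464052-174464351 and chr11:115419870-115420169, all on the minus strand and written 5′ to 3′ along the gene. In Cox6a1, the run of capitals nearer the 5′ end holds 2 overlapping NRF1 matches, 1 on each strand.
Cox6a1: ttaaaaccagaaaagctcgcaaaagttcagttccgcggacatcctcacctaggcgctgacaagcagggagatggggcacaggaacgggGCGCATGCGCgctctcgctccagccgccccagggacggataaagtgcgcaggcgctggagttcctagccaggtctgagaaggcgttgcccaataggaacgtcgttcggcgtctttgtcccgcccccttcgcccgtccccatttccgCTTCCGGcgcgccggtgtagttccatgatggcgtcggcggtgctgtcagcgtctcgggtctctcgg
Atp5e: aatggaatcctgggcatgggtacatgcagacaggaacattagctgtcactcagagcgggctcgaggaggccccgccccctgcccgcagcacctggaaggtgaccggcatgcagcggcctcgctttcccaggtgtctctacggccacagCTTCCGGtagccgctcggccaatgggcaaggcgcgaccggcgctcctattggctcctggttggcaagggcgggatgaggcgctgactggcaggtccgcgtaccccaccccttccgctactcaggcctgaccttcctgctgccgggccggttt
Atp5h: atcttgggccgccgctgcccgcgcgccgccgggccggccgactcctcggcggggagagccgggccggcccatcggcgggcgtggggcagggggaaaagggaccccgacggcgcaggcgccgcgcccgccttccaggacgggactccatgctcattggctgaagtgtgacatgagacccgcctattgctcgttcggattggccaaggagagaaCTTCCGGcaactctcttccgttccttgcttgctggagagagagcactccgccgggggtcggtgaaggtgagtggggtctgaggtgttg
Of the other members that differed, Cox7a2, Ndufa13, Ndufb3 and Ndufb5 had windows with none of the 3 cores. Cox6a2 and Cox6c had no window in the table.

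**Figure D1:**
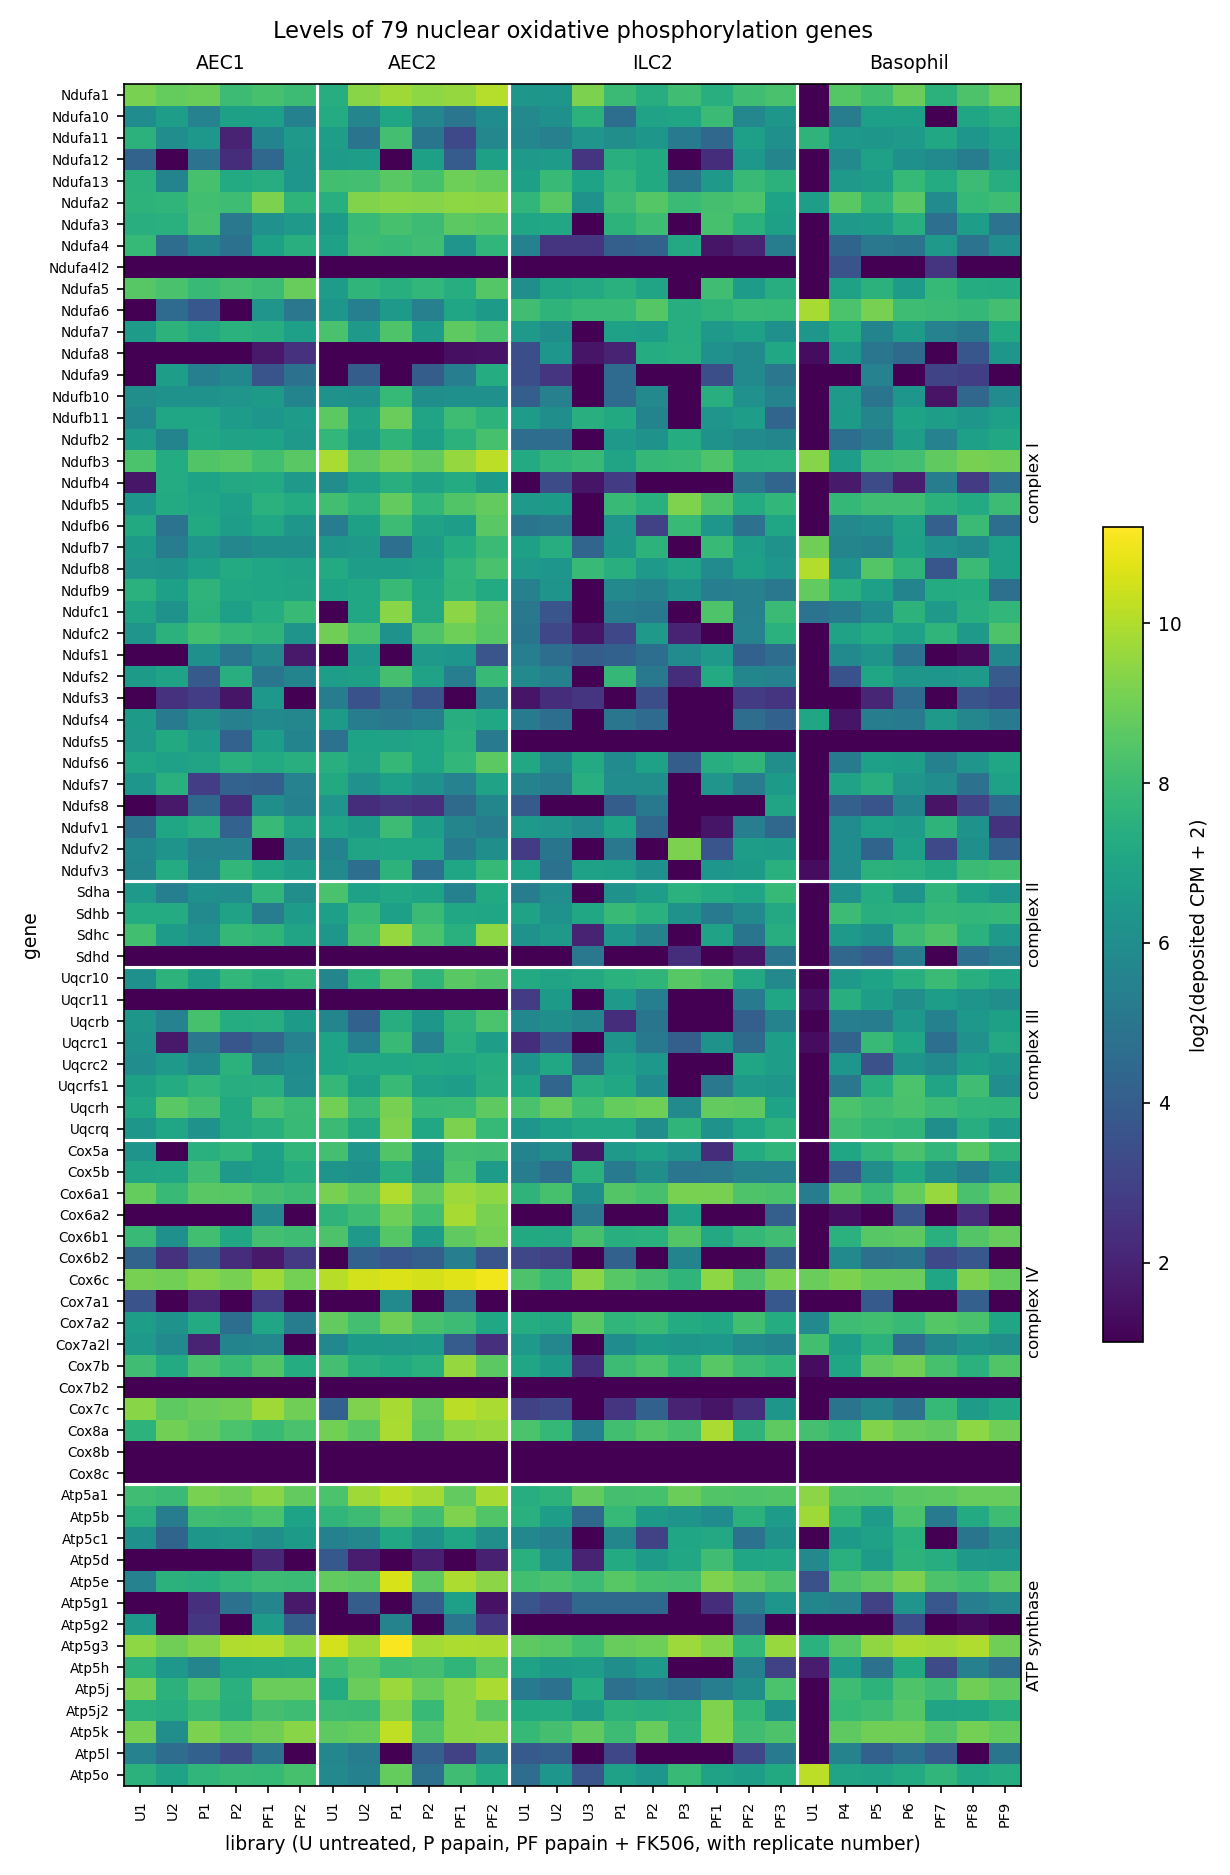
Level of each of the 79 members (rows, grouped by complex) in each of the 28 libraries (columns, grouped by cell label), as log2 of deposited CPM plus 2. The darkest cells are genes listed at 0; the untreated basophil library has 51 of them, and Cox7b2, Cox8b and Cox8c are dark in every column.

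Most members were present in every cell label. In 14 members the value was above 0 in all 28 libraries, among them Cox6c, Cox6a1, Cox7a2, Cox8a, Ndufb3, Atp5a1, Atp5b, Atp5e and Atp5g3. The untreated basophil library stood apart with 51 of the 79 members at 0 and 2002 genes above 0 in all. In the remaining 27 libraries 27 members were never at 0. Complex I gave 30.4% to 49.9% of the summed members and was the largest share in every library except AEC2 papain replicate 1, where ATP synthase had 32.5%.

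By mean CPM over the 28 libraries, the leading members of complex I were Ndufa1 (384.9) and Ndufb3 (383.9), both accessory subunits. Those of complex II were Sdhc, a membrane anchor (175.4), and Sdhb, the iron-sulfur subunit (137.5). Complex III was led by Uqcrh, the hinge protein (294.8), and Uqcr10 (181.3). Complex IV was led by Cox6c (708.4) and Cox8a (430.3), and ATP synthase by Atp5g3, which encodes a copy of the ring subunit c (750.2), and Atp5a1, the alpha subunit of its catalytic head (469.3). The assay reads 3′ ends, so no length correction was made and the order of genes may also follow how each 3′ end is captured. Atp5g3 ranged from 179.9 CPM in the untreated basophil library to 2197.6 CPM in AEC2 papain replicate 1. Cox6c was lowest in a basophil papain with FK506 library (130.0 CPM) and highest in an AEC2 papain with FK506 library (2001.9 CPM). Both ranges cross labels whose listed CPM sum to different totals.

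Muscle and tissue-restricted isoforms were low or listed at 0, with 1 exception. Cox7b2, Cox8b and Cox8c were at 0 in all 28 libraries. Ndufa4l2, a hypoxia-inducible relative of Ndufa4, reached 10.2 CPM at most, in a basophil papain library. Cox7a1, the heart and skeletal muscle isoform of subunit 7a, was at 0 in most libraries, with a highest value of 57.5 CPM in AEC2 papain replicate 1. Its ubiquitous counterpart Cox7a2 was above 0 everywhere. Cox7a2l, which takes part in joining complexes III and IV, spanned 0 to 270.9 CPM. Cox6a2, the heart and skeletal muscle isoform of subunit 6a, was the exception and is described with AEC2.

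A few members divided the tables by set rather than by treatment. Sdhd, a membrane anchor of complex II, and Uqcr11, a small complex III subunit, were at 0 in all 12 AEC libraries and reached 36.9 and 171.6 CPM elsewhere. Ndufs5 showed the reverse, with 16.4 to 178.9 CPM in AEC libraries and 0 in all ILC2 and basophil libraries. Ndufa6 had 0 to 126.5 CPM in AEC libraries and 161 to 933.9 CPM elsewhere, without overlap. Other members leaned to a set with overlapping ranges. Among them, Cox7c had 16 to 1115.2 CPM in AEC libraries and 0 to 228.2 CPM elsewhere. Atp5d had 12 CPM at most in AEC libraries and 2 to 265 CPM elsewhere, and Ndufa8 had 3.5 CPM at most in AEC libraries. The AEC and other tables differ in their symbol sets, so the cell label and the annotation cannot be told apart for these members.

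AEC2 libraries held more nuclear oxidative phosphorylation mRNA than AEC1 libraries. Among the symbols common to all tables, the members took 1.790% to 3.091% of the summed CPM in AEC2 and 1.203% to 1.726% in AEC1. The 6 and 6 libraries did not overlap, and without the near-identical pair the lowest AEC2 share was 1.862%. In ILC2 the share was 1.295% to 1.888% and in basophil libraries 1.353% to 2.133%. Tables of these 2 labels were not set against AEC in a test.

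**Figure D2:**
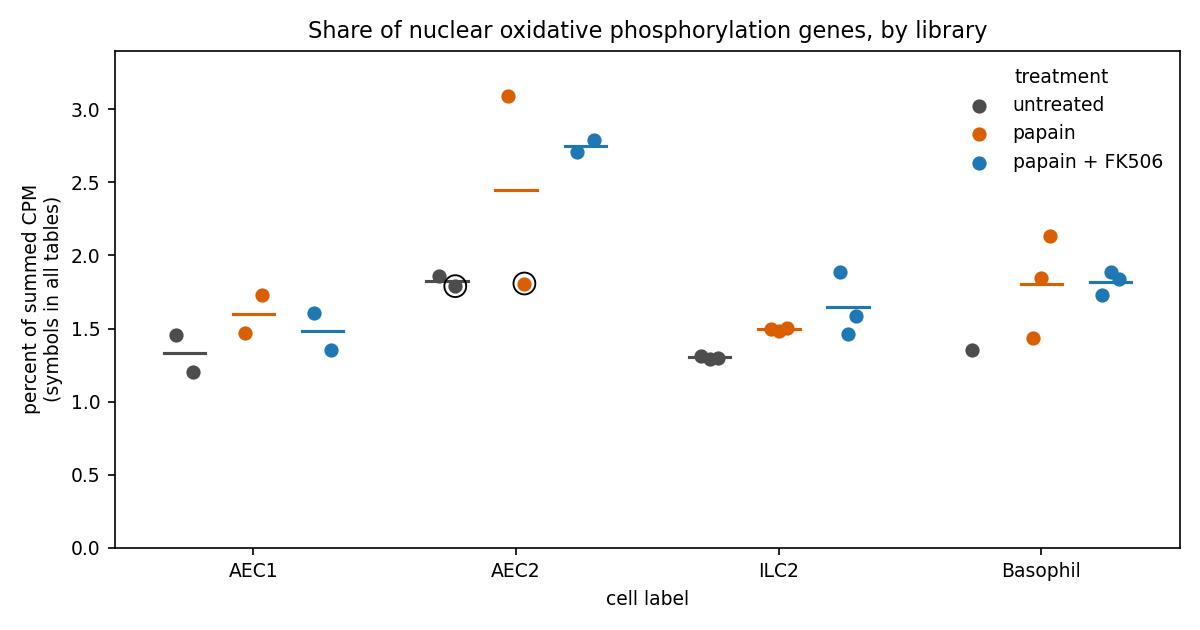
Share of the 79 members in the summed CPM of the symbols common to all tables (percent), by cell label and treatment. Each point is a library, short lines are means of groups with more than 1 library, and open circles mark the near-identical AEC2 pair; AEC2 points lie at 1.790% or above and AEC1 points at 1.726% or below.

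The direct comparison used limma on log2(scaled CPM + 2), averaged over the treatments. Of 71 members tested, 63 had a positive difference, AEC2 minus AEC1, with a median of 0.80. Over all 9841 genes tested the median was -0.45 and 40.6% were positive. With Benjamini-Hochberg adjusted p under 0.05, 9 members were called, all higher in AEC2, and none was lower. That is 12.7% of the members, the same share as over all genes (12.7% called). The directions differed, since over all genes 4.43% were called higher and 8.25% lower. In deposited CPM, 6 of 71 members (8.45%) lay above AEC1 in AEC2 without overlap and none below, beside 2.59% and 4.90% of all genes.

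By complex the member medians were alike: 0.80 for complex I (35 tested), 0.80 for complex II (3), 0.66 for complex III (7), 0.92 for complex IV (13) and 0.68 for ATP synthase (13). The called members were 3 of complex I, 4 of complex IV and 2 of ATP synthase. No member of complex II or III was called. The 8 members with a negative difference were Atp5g2, Atp5o, Cox5b, Cox7c, Ndufa5, Ndufa9, Ndufv3 and Uqcrb. The member with the most negative difference, Atp5o (-0.88, SE 0.62), did not pass (limma adjusted p = 0.355).

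**Figure D3:**
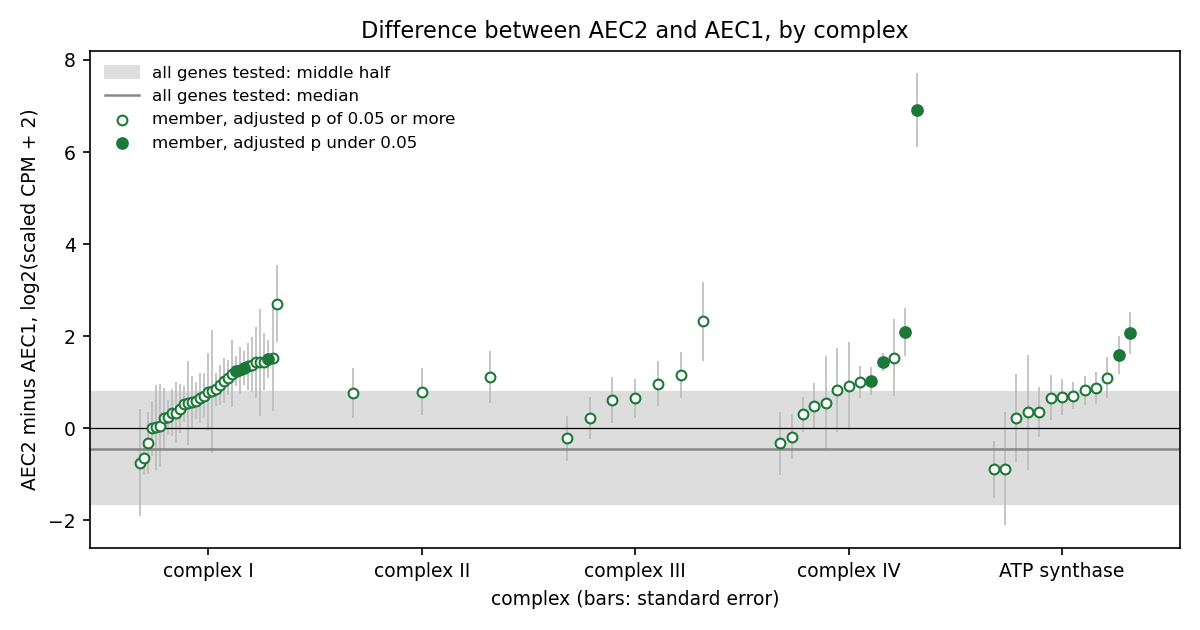
Difference AEC2 minus AEC1 in log2(scaled CPM + 2) for each of the 71 members tested, by complex; bars are standard errors, filled points have an adjusted p under 0.05. The grey line is the median of all genes tested (-0.45) and the grey band their interquartile range; all filled points lie above 1.

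Complex IV held the clearest differences. Cox6c, a small nuclear subunit, had 1096, 1468.9, 1597.5, 1488.7, 1651.8 and 2001.9 CPM in the 6 AEC2 libraries. In AEC1 the values were 555.6, 517.5, 654.3, 549.5, 849.5 and 528.4 CPM. Every AEC2 value lay above every AEC1 value, whatever the treatment. The difference was 1.44 on the log2 scale (SE 0.20; limma adjusted p = 0.00088).

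Cox6a2 had 199, 258.5, 489.0, 271.9, 941.6 and 564.3 CPM in AEC2. It was at 0 in 5 AEC1 libraries and 53.7 CPM in AEC1 papain with FK506 replicate 1. The groups did not overlap, and the fitted difference was 6.91 (SE 0.80; limma adjusted p = 0.00032), a size that depends on the 2 CPM added, since most AEC1 values are 0. The gene lies at chr7:128205435-128206366 (GRCm38.p6) and overlaps the annotation of Itgad, which was at 0 in all 28 libraries. Markers of heart and skeletal muscle, 7 genes, were all at 0 in every AEC2 library. In ILC2, Cox6a2 was at 0 in all 6 libraries of replicates 1 and 2. In replicate 3 it had 32, 114 and 15 CPM under untreated, papain and papain with FK506. These are the ILC2 libraries that also held AEC2 markers, 5210, 6833 and 5012 CPM in that order. Of these sums Sftpc gave 1936, 2087 and 1042 CPM and Sftpb 520, 1275 and 637 CPM, the rest coming from other genes of the list. The part of those markers in the Cox6a2 values was not tested. Basophil libraries held 10.6 CPM at most.

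The ubiquitous isoform Cox6a1 passed the test with all libraries but in only 6 of 22 alternatives and in 1 of 12 fits that left out 1 library. It had 550, 405.5, 1009.8, 425.6, 836.8 and 698.5 CPM in AEC2 and 440.0, 239.2, 386.5, 370.1, 289.4 and 251.2 CPM in AEC1. The ranges overlapped slightly, and the difference was 1.04 (SE 0.30; limma adjusted p = 0.046).

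Cox7a2, the ubiquitous isoform of subunit 7a, had 425, 286.2, 509.9, 296.6, 254.5 and 131.7 CPM in AEC2. AEC1 libraries had 102.1, 72.5, 147.2, 23.6, 130.7 and 37.7 CPM. Only AEC2 papain with FK506 replicate 2 fell within the AEC1 range, and the difference was 2.10 (SE 0.53; limma adjusted p = 0.024). Its annotation overlaps Tmem30a, and the strand setting of the counting is not given, so reads of this pair may be mixed. Cox8a, the other leading member of complex IV, did not pass (1.00, SE 0.35; limma adjusted p = 0.084), nor did Cox7a1 or Cox7a2l.

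ATP synthase contributed Atp5e and Atp5h. Atp5e, the epsilon subunit, had 426, 390.1, 1533.0, 408.3, 978.2 and 688.6 CPM in AEC2, against 43.8, 185.2, 169.4, 211.2, 254.4 and 243.0 CPM in AEC1. The groups did not overlap and the difference was 2.07 (SE 0.45; limma adjusted p = 0.013). Atp5h, subunit d of the peripheral stalk, had 263, 367.8, 260.4, 294.1, 202.8 and 376.2 CPM in AEC2 and 184.1, 85.1, 47.6, 105.6, 110.9 and 115.6 CPM in AEC1. These groups did not overlap either (1.595, SE 0.42; limma adjusted p = 0.030). The most abundant members of the enzyme, Atp5g3 (0.71, SE 0.29) and Atp5a1 (0.82, SE 0.32), did not pass (limma adjusted p of 0.121 and 0.108).

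Complex I was represented by 3 accessory subunits. Ndufb3, of the membrane arm, had 953, 409.4, 555.8, 429.7, 756.7 and 1162.5 CPM in AEC2 and 315.4, 153.0, 343.1, 376.2, 277.7 and 382.2 CPM in AEC1. Ndufb5, also of the membrane arm, had 204.7 to 424.4 CPM in AEC2 and 79.7 to 179.7 CPM in AEC1. Neither gene overlapped between the labels. Their differences were 1.25 (SE 0.33; limma adjusted p = 0.031) and 1.31 (SE 0.37; limma adjusted p = 0.042). Ndufa13, which lies where the arms of the complex meet, had 275 to 495.5 CPM in AEC2 and 47.2 to 299.6 CPM in AEC1, with overlap at the papain replicate 1 library of AEC1. It differed by 1.51 (SE 0.41; limma adjusted p = 0.034). Ndufa1 (0.85, SE 0.35) and Ndufa4 (1.39, SE 0.60), the latter counted here by name only, did not pass (limma adjusted p of 0.132 and 0.147).

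**Figure D4:**
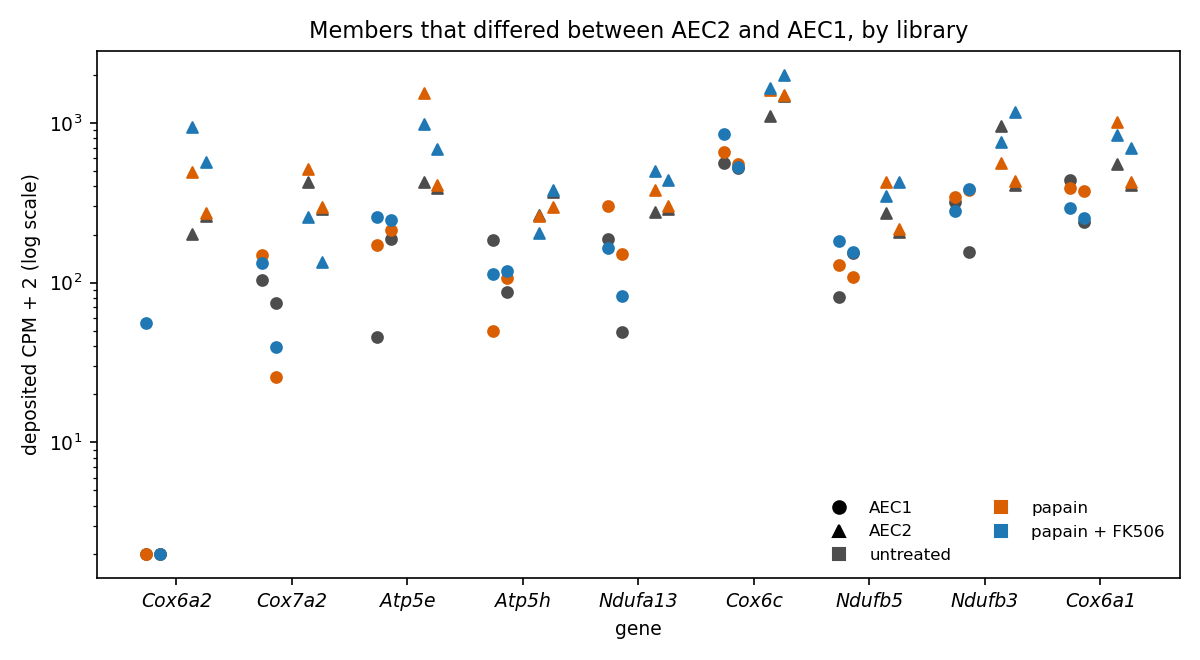
Deposited CPM plus 2, on a log axis, of the 9 members that differed between AEC2 (triangles) and AEC1 (circles), in each of the 12 libraries, coloured by treatment. Atp5e, Atp5h, Cox6a2, Cox6c, Ndufb3 and Ndufb5 do not overlap between the labels.

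Without the near-identical pair, 9 members were again called, 6 of them shared with the full comparison. Cox6a2 (7.00), Cox6c (1.38), Atp5e (2.40), Cox6a1 (1.31), Ndufb3 (1.51) and Ndufb5 (1.53) still passed. Atp5h (limma adjusted p = 0.0831), Cox7a2 (0.0516) and Ndufa13 (0.0748) did not, and Atp5g3, Atp5j2 and Ndufb11 were added. Leaving out 1 library at a time gave 3 to 9 called members. The counts were 3 without AEC1 papain with FK506 replicate 2, and 4 without AEC1 papain with FK506 replicate 1 or without either AEC2 papain with FK506 library. They were 5 without papain replicate 1 of AEC1 or of AEC2, or without AEC2 untreated replicate 1. Cox6a2, Cox6c and Atp5e passed in all 22 alternatives. Cox7a2 passed in 14, Atp5h in 12, Ndufb3 in 11, Ndufa13 and Ndufb5 in 7 each and Cox6a1 in 6, and no difference changed sign.

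The captured transcripts of the mitochondrial genome did not share the direction. The 13 subunits it encodes, listed only in the AEC tables, summed to 36559 to 86264 CPM in AEC2 and 68165 to 262144 CPM in AEC1, with overlapping ranges. ND4L and ATP8 were at 0 in every AEC library, and COX2, COX3, ND3 and ATP6 reached at most 3.1, 15, 38.9 and 48.2 CPM. The sum therefore describes ND1, ND2, ND4, ND5, ND6, CYTB and COX1 rather than all 13 subunits. Of the 13, 8 were tested, and none was positive and none passed, with a median of -0.71. ND6 (-1.21, SE 0.42; limma adjusted p = 0.081), ND2 (-1.05, SE 0.40) and ND4 (-0.92, SE 0.36) were furthest, and COX1, the catalytic core of complex IV, was at 0.00 (SE 0.21). Without AEC1 papain replicate 1, ND1, ND4, ND6 and CYTB were called lower in AEC2. ND2 and ND6 were called without AEC2 papain replicate 2, ND2 without the near-identical pair, and ND6 in deposited CPM without scaling. When mitochondrially encoded and ribosomal RNA genes were removed before scaling, 9 nuclear members were called, all 9 shared with the full comparison. Over all genes that fit called 1262, against 1248 in the full comparison. The nuclear noncoding RNA Malat1 had 1580 to 6253 CPM in AEC2 and 15522 to 95482 CPM in AEC1. The part of this gap, and of the fibroblast markers of AEC1 libraries, in the member differences was not tested.

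**Figure D5:**
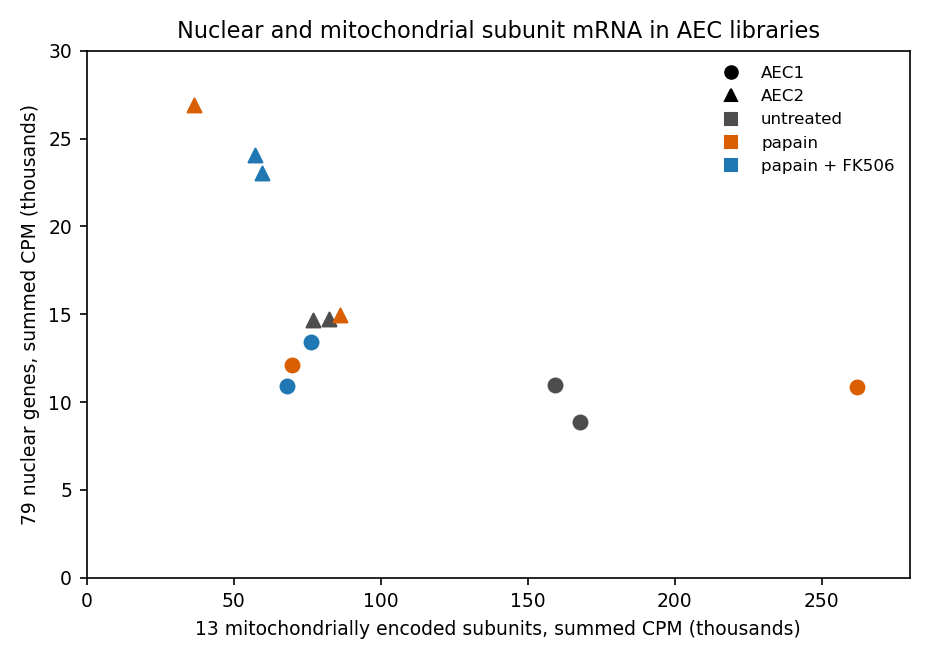
Summed CPM of the 79 nuclear members (vertical) against that of the 13 mitochondrially encoded subunits (horizontal), scaled as the axis labels state, in the 12 AEC libraries; triangles are AEC2 and circles AEC1, coloured by treatment. All AEC2 libraries lie above all AEC1 libraries on the vertical axis, while the labels overlap on the horizontal axis.

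Other genes of the pathway differed in few cases between AEC2 and AEC1. Of 5 respiratory chain genes outside the symbol pattern none was called, including Cox4i1 (0.57, SE 0.42). None of 34 assembly factors and none of 11 regulators was called, among them Nrf1, Gabpa, Yy1 and Ppargc1a, beside 12.7% of all genes. Many of these genes were listed at 0. Per AEC library, 17 to 29 of the 47 assembly factors listed and 6 to 10 of the 12 regulators were at 0. Gabpa and Ppargc1a were at 0 in most AEC libraries, so the lack of a call says little about them. In the TCA cycle, 1 of 16 genes was higher: Suclg1, a subunit of succinyl-CoA ligase (3.09, SE 0.58; limma adjusted p = 0.0059), with 203.9 to 731.5 CPM in AEC2 and 11.7 to 84.9 CPM in AEC1. Of 7 genes for adenine nucleotide and phosphate exchange, Slc25a5, an ADP/ATP carrier, was higher (1.43, SE 0.34; limma adjusted p = 0.019). Its values were 257 to 492.5 CPM in AEC2 and 73.8 to 253.2 CPM in AEC1.

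Treatment comparisons asked whether papain, or FK506 given with it, went with other levels of these genes. In AEC1 no member was called by limma. The background was equally sparse: 0% of 8178 genes were called for papain against untreated and for papain with FK506 against papain, and 0.0245% (2 genes) for papain with FK506 against untreated. At unadjusted p under 0.05 there were 5, 0 and 1 of 68 members in those comparisons, and 761, 496 and 957 of all genes. Member medians were 0.27, -0.10 and 0.27, beside 0.16, 0.08 and 0.30 over all genes. The summed members gave 10956.2 and 8873.8 CPM in untreated AEC1, 12091.3 and 10889.6 CPM under papain, and 13420.7 and 10913.2 CPM under papain with FK506, with overlap between the treatments. On recovered reads edgeR called 15, 0 and 29 genes and DESeq2 116, 11 and 198 genes, with no member among them.

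The AEC1 members with the smallest p under papain were Uqcrb (1.83, SE 0.67), Ndufs7 (-3.36, SE 1.27) and Cox5a (4.04, SE 1.55), with limma adjusted p of 0.488 or more. Ndufs7, a catalytic-arm subunit of complex I, had 80.8 and 174.8 CPM untreated, 5.3 and 16.4 CPM under papain, and 15.2 and 43.6 CPM under papain with FK506. Cox5a had 75.2 and 0 CPM untreated and 110.9 to 207.1 CPM in the 4 treated libraries. With FK506 added to papain the smallest p were for Ndufc2, Ndufa6 and Ndufa4, and against untreated for Ndufs8, Cox5a and Atp5a1, none passing (limma adjusted p of 0.902, and 0.403 to 0.431).

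In AEC2 no member was called by limma, and 0% of 6719 genes were called in each of the 3 comparisons. The summed members were 14653.0 and 14722.3 CPM untreated, 26891.4 and 14976.9 CPM under papain, and 23041.4 and 24043.7 CPM under papain with FK506. Both papain with FK506 libraries and papain replicate 1 were thus higher than the untreated libraries, while papain replicate 2 is the library nearly identical with an untreated one. Member medians were 0.32 for papain against untreated, 0.32 for papain with FK506 against papain and 0.63 for papain with FK506 against untreated, beside 0.00, 0.04 and -0.07 over all genes. At unadjusted p under 0.05 there were 1, 2 and 5 of 71 members, and 14, 282 and 306 of all genes.

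Ndufc1, a small subunit of complex I, led the papain with FK506 comparison in AEC2. It had 0 and 135.4 CPM untreated, 665.4 and 138.8 CPM under papain, and 686.3 and 398.5 CPM under papain with FK506. The last pair lay above both untreated values (4.88, SE 1.62; limma adjusted p = 0.901). It was called under a robust variance prior (limma adjusted p = 0.00549), a fit that called 8 genes in all. Without AEC2 papain with FK506 replicate 2, which leaves 1 library in that group, the difference was 5.33. Uqcrb, a small complex III subunit, had 50 and 16.2 CPM untreated, 160.9 and 83.0 CPM under papain, and 196.1 and 315.7 CPM under papain with FK506 (2.86, SE 0.98; limma adjusted p = 0.901). DESeq2 on the recovered reads, which leave out AEC2 untreated replicate 1 and so hold 1 untreated library, gave Uqcrb a difference of 3.81. Cox6a2 had 199 and 258.5 CPM untreated and 941.6 and 564.3 CPM under papain with FK506, and did not pass (1.51, SE 0.57; limma adjusted p = 0.901).

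Between papain with FK506 and papain in AEC2, Cox7b went from 149.3 and 174.2 to 770.2 and 396.9 CPM (1.75, SE 0.65), and Cox7a2l from 89.4 and 96.1 to 13.5 and 3.3 CPM (-3.38, SE 1.44). Neither passed (limma adjusted p = 0.914 for each), nor did Ndufb7. For papain against untreated the smallest p were for Ndufc1, Cox7c and Ndufc2 (limma adjusted p of 1.00). Without the near-identical pair, which leaves 1 library in the untreated and papain groups, no member was called in any of the 3 comparisons. The member medians became 0.58 for papain against untreated, -0.21 for papain with FK506 against papain and 0.32 for papain with FK506 against untreated, beside 0.00, 0.40 and 0.20 over all genes. The median for FK506 added to papain therefore changed direction with the pair left out. The lone libraries are then assumed to vary like the other group. The difference between AEC2 and AEC1 in the response to papain, and in that to FK506, was tested as an interaction: 0% of 9841 genes and no member passed, with unadjusted p under 0.05 for 454 and 566 genes and for 0 and 1 members. The smallest p were for Ndufc2, Ndufs7 and Cox5a in the response to papain (limma adjusted p of 0.972) and for Cox7b (2.10, SE 0.91), Ndufc2 and Ndufv1 in that to FK506 (limma adjusted p of 0.854 or more).

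In ILC2 the share of the members was higher in all treated libraries than in all untreated ones, although no single member was called. It was 1.313%, 1.295% and 1.301% untreated, 1.497%, 1.483% and 1.507% under papain, and 1.888%, 1.460% and 1.586% under papain with FK506. The papain values lay within the spread of the papain with FK506 values. Summed CPM were 6703, 6899 and 7010 untreated, 9015, 8868 and 9014 under papain, and 11634, 8441 and 9933 under papain with FK506. The sum of the common symbols, by which the share is divided, was also lower in untreated libraries. Replicate 3 held markers of other cells that differed by treatment: airway markers summed to 33267 CPM in its untreated library, and macrophage, monocyte and dendritic markers to 12020 CPM in its papain with FK506 library, where Gata3 and Il1rl1 were at 0 and Rora had 15 CPM. In replicates 1 and 2 alone, the 4 treated shares also lay above both untreated ones.

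By limma, 0% of 6271 genes were called for papain against untreated and for papain with FK506 against untreated, and 0.0159% (1 gene, no member) for papain with FK506 against papain. At unadjusted p under 0.05 there were 4, 6 and 1 of 68 members in that order, and 237, 241 and 257 of all genes. Overlap was counted in deposited values without scaling. Of the 68 members, 12 (17.6%) lay above untreated under papain without overlap and 2 (2.94%) below, beside 4.31% and 3.03% of all genes. Listed genes summed to 519768 to 547473 CPM in untreated libraries, 609483 to 613636 CPM under papain and 589429 to 636598 CPM under papain with FK506. The part of this gap in the counts was not tested. The 12 were Atp5g3, Atp5j2, Atp5o, Cox5a, Cox6a1, Cox7b, Ndufa7, Ndufb2, Ndufb5, Sdha, Uqcr10 and Uqcrc1, and the 2 were Atp5h and Uqcrb. After scaling, the fitted differences of the 12 ran from 0.24 (Atp5j2) to 3.21 (Ndufb5). For papain with FK506 against untreated, 10 (14.7%) lay above and 3 (4.41%) below, beside 5.10% and 3.24% of all genes. This comparison shares its untreated libraries with the one before. For papain with FK506 against papain it was 2 above and 2 below (2.94% each), beside 4.05% and 2.79%.

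Cox7b, a small complex IV subunit, had 126, 91 and 3 CPM in untreated ILC2. Papain libraries had 256, 315 and 189 CPM, and papain with FK506 libraries 369, 252 and 209 CPM. All 6 treated values lay above all 3 untreated values (2.41, SE 0.90, and 2.54, SE 0.90; limma adjusted p of 0.985 and 0.994). Ndufb5 had 86, 93 and 0 CPM untreated, 230, 174 and 605 CPM under papain, and 327, 151 and 215 CPM with FK506. It did not overlap with untreated either (3.21 and 2.84, SE 1.03 for each), and did not pass. Sdha, the flavoprotein that oxidises succinate, had 37, 62 and 0 CPM untreated, 73, 103 and 181 CPM under papain, and 154, 130 and 227 CPM with FK506 (3.02, SE 1.17, with FK506 against untreated). Ndufb2 (2.94, SE 1.32) completed the members with the smallest p under papain, and Ndufc1 (3.34, SE 1.49), Ndufa5 and Ndufb10 those for FK506 added to papain, all with limma adjusted p of 0.933 or more.

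Replicate 3 bore on these values. Members at 0 numbered 28 in untreated and 30 in papain replicate 3, and 6 in papain with FK506 replicate 3, against 9 to 20 in replicates 1 and 2. Member medians with all libraries were 0.18, 0.22 and 0.33 for papain against untreated, papain with FK506 against papain and papain with FK506 against untreated, beside -0.21, 0.15 and -0.04 over all genes. With replicates 1 and 2 only they were 0.08, -0.16 and -0.02, and no member was called. These last medians are not set beside those over all genes. They do not show whether the members moved apart from other genes in that fit.

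In basophil-labelled libraries the 6 treated samples could be compared. For papain with FK506 against papain, 0% of 5853 genes and no member passed, with 354 genes and 3 of 68 members at unadjusted p under 0.05. Summed members were 9426.5, 11510.7 and 13564.3 CPM under papain and 10365.5, 12219.7 and 11731.5 CPM with FK506, and the member median was -0.18 (all genes -0.07). In deposited CPM without scaling, 3 members (4.41%) lay above papain without overlap and 5 (7.35%) below, beside 5.77% and 5.62% of all genes. Those above were Atp5a1, Cox7c and Ndufb3, and those below Atp5c1, Atp5j2, Cox6b2, Uqcrh and Uqcrq. Ndufb3 had 104.0, 256.3 and 279.9 CPM under papain and 420.2, 547.5 and 522.6 CPM with FK506 (1.28, SE 0.47; limma adjusted p = 0.687). Cox7c had 28.5, 47.5 and 25.6 CPM under papain and 228.2, 93.6 and 137.4 CPM with FK506 (2.03, SE 0.84; limma adjusted p = 0.799). Atp5c1, the gamma subunit of the ATP synthase rotor, had 92.2, 113.4 and 183.1 CPM under papain and 0, 29.6 and 53.1 CPM with FK506 (-3.10, SE 1.28; limma adjusted p = 0.799). Markers of other cells moved with this contrast without overlap. The sum of the fibroblast and smooth muscle list was 183.1 to 974.2 CPM under papain and 2762.5 to 3812.4 CPM with FK506. That of AEC2 markers was 1387.3 to 2705.0 CPM under papain and 3182.5 to 11893.9 CPM with FK506, of which Sftpc gave 202.3 to 313.7 and 666.9 to 3463.1 CPM. Macrophage, monocyte and dendritic markers summed to 12899.2 to 19703.2 CPM under papain and 1997.3 to 10824.3 CPM with FK506. Their part in the member values was not tested.

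Only 1 untreated basophil library stands against the 3 papain libraries, so the fit takes its spread from the other groups and its calls are given as a description of that library, not as evidence of a response to papain. Of 5853 genes, 23.1% were called for papain against untreated, 21.1% higher and 2.00% lower, and the median over all genes was 3.05. Of 68 members 39 were called higher and 2 lower, with a median of 4.75. The members with the largest fitted difference, Atp5k, Ndufa1, Cox6b1, Uqcrh, Atp5j2, Atp5j and Ndufb5, are listed at 0 in that library and Cox7b at 0.5 CPM, so no fold is given. In the papain libraries Atp5k, a small ATP synthase subunit, had 407.8, 508.0 and 501.8 CPM. Atp5o, the oligomycin sensitivity subunit, had 1161.5 CPM in the untreated library and 123.6, 115.0 and 147.3 CPM under papain. Ndufb7 had 503.7 CPM untreated and 48.0, 42.3 and 112.8 CPM under papain. These were the 2 members with lower calls. The part of the 51 zeros of the untreated library in these values was not tested. No gene of the other pathway lists was called in the remaining treatment comparisons.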

How the data were processed

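Total RNA of sorted lung cells was made into 3′ end libraries with a Lexogen kit from 10 ng each, as the labels' protocols state. STAR 2.7.0c, featureCounts 1.6.0 and the builds mm10 and GRCm38.p6 are named, per the submitters' processing notes; settings are not given in the sources used here. The authors deposited CPM for 18 libraries. For 10 libraries (9 ILC2 and AEC2 untreated replicate 1) the deposited values are whole numbers on the CPM scale, treated as a score, that is, CPM rounded by the authors. After TMM scaling (edgeR 4.0.16) and addition of a pseudocount of 2 CPM, limma 3.58.1 (R 4.3.3) was run on log2 values of all genes reaching 10 CPM in at least 2 libraries (AEC) or 3 (ILC2, basophil). A file code term was fitted for ILC2. P-values are two-sided and adjusted by Benjamini-Hochberg over all genes tested, with a threshold of 0.05. The procedure was also run on simulated data with independent scatter between libraries, and the outcome is not reported here. Such data hold no near-identical pair, so that run says nothing on libraries of this kind. In AEC1 and 5 AEC2 libraries, whole reads were recovered from the steps of low values: 100.0% of values under 25 CPM were whole within 0.1 read. edgeR and DESeq2 1.42.0 were run on them as alternatives.

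The members, the gene lists and the tests were chosen with earlier results of these data known. Members were named if called (up to 8 per direction), if among the 2 highest of a complex, if a muscle or ubiquitous isoform, or, where none was called, if among the 3 smallest p. Coordinates are those of RefSeq on GRCm38.p6.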

Additional observations from a re-analysis of the deposited data

How the results depend on the processing

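For AEC2 versus AEC1, 9 members were called and the 22 alternatives gave 3 to 11, with member medians of 0.59 to 0.88 beside -0.86 to -0.24 over all genes. A replicate block gave 4 called members and rescaling to the sum of listed genes gave 5; leaving out 1 library gave 3 to 9. The cause was not tested. Apart from the fits named next, these counts are not set beside those over all genes. They therefore show no change particular to the members. Removing mitochondrially encoded and ribosomal RNA genes called 1262 genes in all and 9 members. The block called 483 genes in all, against 1248 in the full comparison. Its 4 members were Atp5e, Cox6a2, Cox6c and Uqcrq, the last not called without it, and 6 members lost their call (limma adjusted p): Atp5h 0.190, Cox6a1 0.106, Cox7a2 0.123, Ndufa13 0.246, Ndufb3 0.131 and Ndufb5 0.113. The block joined same-numbered libraries within a label only, and pairing of AEC1 with AEC2 libraries was not examined. Within a label, libraries of the same number were not taken as paired: their deviations correlated at -0.019 to 0.017 in AEC1. In AEC2 the untreated and papain libraries, which include the near-identical pair, correlated at 0.45 for the same number and -0.45 for different numbers, and the other same-numbered pairs at -0.01. In ILC2 not every library correlated best with its own number. The fits without the near-identical pair and without mitochondrially encoded genes were chosen after seeing the data. A member was called lower in 2 of these fits: Cox7c without AEC2 untreated replicate 2 and Atp5o without AEC2 papain replicate 1. In the 12 treatment and interaction comparisons no member was called in 189 of 192 alternative fits. The other 3, all for papain with FK506 against untreated in AEC2, called 1 member each (leaving out 1 library at a time there gave 0 to 1): Ndufc1 under a robust variance prior and without AEC2 papain with FK506 replicate 2, and Uqcrb by DESeq2. Basophil papain against untreated gave 30 to 54 called members. In ILC2, the Ndufa5 difference for FK506 added to papain (2.08) turned to -0.037 with replicates 1 and 2 only and to -0.079 without papain replicate 3, and leaving out 1 library at a time gave -0.079 to 3.053. With 2 or 3 libraries per group and a median standard error of 0.80 (AEC1), 0.83 (AEC2) and 1.23 (ILC2) per member on the log2 scale, differences near that size lie within the error.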
